A study of Homo sapiens with 6 samples.

Results

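Axon guidance ligands and receptors were measured by RNA sequencing in the human melanoma cell line A-375. Members were all rows of the count table whose symbol belongs to the semaphorin, plexin, neuropilin, ephrin, Eph, slit, Robo, netrin (NTN1 and NTN4 only), UNC5 or neogenin families, leaving out antisense names and rows with fewer than 30 reads over the 6 libraries. Of 63 matching symbols 61 were kept, out of 21631 rows in all. They comprised 16 semaphorins with 11 plexin and neuropilin receptors, 8 ephrins with 12 Eph receptors, 2 slits with 4 Robo receptors, and 2 netrins with 4 receptors. UNC50, a Golgi membrane protein, and UNC5CL, a death-domain adaptor related to UNC5C, matched by their letters only and are not counted in any of these systems. DCC, also looked for, had no row in the count table. The total read limit was set on the sum over both groups, so it does not use the direction of any difference. The members just inside it were EPHA6 with 31 reads and SLIT1 with 39, and just outside were SEMA4A with 21 and SEMA5A with 8.

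There were 3 libraries from A-375 cells carrying a guide against SEPHS2, labelled knockout, and 3 from A-375 cells carrying a control guide. SEPHS2 makes the selenophosphate from which selenocysteine is built. The labels give no clone, time point or number of cultures for either group, so a p-value compares the groups only with the spread among these libraries, which may be technical. Whether the groups already differed before the guide was introduced cannot be told apart from what the guide did.

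Axon guidance cues steer growing nerve fibres and migrating cells by attraction or repulsion. Semaphorins signal through plexins, with neuropilins as co-receptors for most secreted class 3 semaphorins. Ephrins are membrane-bound ligands of the Eph receptor tyrosine kinases, slits are secreted ligands of Robo receptors, and netrins act through DCC, neogenin and the UNC5 family. Melanocytes descend from the neural crest, whose migration in the embryo is guided by several of these systems.

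Library depth was 34606145 to 43405579 counted reads in the sgSEPHS2-labelled libraries and 39796984 to 41757643 in the sgCTRL libraries. SEPHS2 mRNA itself was not lower in the sgSEPHS2-labelled libraries, at 173 ± 3.85 CPM (reads scaled to library size) against 156 ± 3.32 CPM in the sgCTRL libraries (SD, n = 3 each; log2 fold change 0.15, edgeR adjusted p = 0.00401). Read counts do not tell an edited transcript from an intact one, so each direction below rests on the labels. Summed melanocyte markers were 615 to 641 CPM in the sgSEPHS2-labelled libraries and 663 to 691 CPM in the sgCTRL libraries. Of the 10 markers 2 were called lower, beside 23.4% of all genes tested. The 2 were MITF, at 18.5 ± 0.668 CPM and 23.5 ± 1.30 CPM (log2 fold change -0.35, edgeR adjusted p = 0.000124), and SOX10 (-0.12, edgeR adjusted p = 0.0164). The SOX10 call was lost without sgCTRL replicate 1, sgCTRL replicate 2 or sgSEPHS2 replicate 3 (largest edgeR adjusted p = 0.0661). SOX10 stood at 569 and 619 CPM and S100B at 33.1 and 33.9 CPM in the sgSEPHS2-labelled and sgCTRL libraries, while PMEL was near 1 CPM (0.972 and 0.964). TYR, TYRP1 and DCT were at or near 0 (at most 0.0915 and 0.227 CPM) and had too few reads to be tested. Summed neuron markers were 42.4 to 45.9 CPM against 64.7 to 71.5 CPM, with 3 of 6 called lower (SYT1, SNAP25 and MAP2), beside 23.4% of all genes tested. ELAVL3 had too few reads to be tested. Summed fibroblast markers were 48.7 to 55.0 CPM against 73.1 to 75.0 CPM. Epithelial markers summed to 247 to 254 CPM against 202 to 207 CPM, and leukocyte markers to 6.52 to 7.20 CPM against 3.42 to 4.38 CPM. The fibroblast sum was mostly PDGFRB, at 28.9 and 52.5 CPM in the sgSEPHS2-labelled and sgCTRL libraries. PDGFRB and COL1A1 were called lower (log2 fold changes -0.86 and -0.61) and LUM was called higher (0.76). DCN, COL3A1 and PDGFRA were not called. The epithelial sum was mostly KRT8 (104 and 75.0 CPM) and KRT18 (143 and 129 CPM), with EPCAM and CDH1 under 1 CPM. KRT8, KRT18 and KRT14 were called higher (log2 fold changes 0.48, 0.15 and 2.14). EPCAM was not called and CDH1 was not tested. The leukocyte sum was mostly LYZ (6.70 and 3.28 CPM), which was called higher (log2 fold change 1.03). CD14 was not called, and PTPRC and CD68 had too few reads to be tested. The part of all these markers in the results below was not tested.

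Guidance genes were mostly lower in the sgSEPHS2-labelled libraries. Of the 61 members, 59 passed the filter on low counts and EPHA6 and SLIT1 did not. Of the 59 tested, 32 were lower, 9 were higher and 18 did not pass the test (edgeR adjusted p under 0.05 over all 16910 genes tested). That is 54.2% lower and 15.3% higher, where 23.4% of all genes tested were called lower, 22.0% higher and 45.4% either way. The median log2 fold change, sgSEPHS2 over sgCTRL throughout, was -0.26 for the members and 0.01 for all genes. Signed values in brackets below are log2 fold changes in this direction, with their SE where given. The groups did not overlap in 31 members with the sgSEPHS2-labelled libraries below and in 10 with them above, where 25.6% of all genes lay below and 26.5% above (52.1% in all). These counts describe the list, whose members were chosen with earlier results of these data known. Taking out a smooth curve in GC content and exon length (the length and GC trend) left 26 of the 59 members lower and 15 higher. Of the 15760 genes tested in that setting, 3065 were lower and 4378 higher. The share of higher calls among all called genes moved to 58.8%, against 48.5% with the trend left in. In bulk RNA, fewer cells with a transcript and less of it per cell cannot be told apart.

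**Figure D1:**
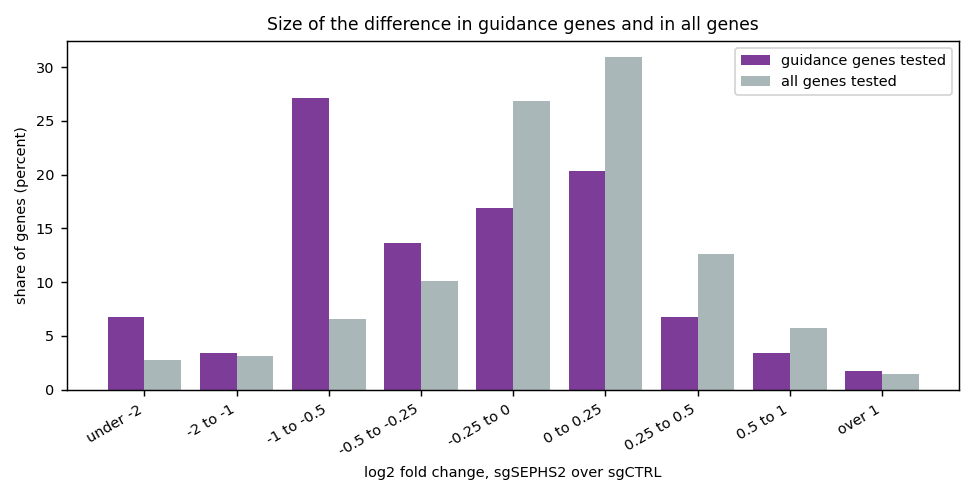
Share of genes in each range of log2 fold change (sgSEPHS2 over sgCTRL), for the 59 guidance genes tested and for all 16910 genes tested. The range from -1 to -0.5 holds 27.1% of the guidance genes and 6.53% of all genes.

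Most of these differences were of modest size. Between -1 and -0.5 on the log2 scale lay 16 of the 59 members. At least 2-fold lower and called were 5 members, where 5.67% of all genes were, and at least 2-fold higher was only EPHB1, where 1.25% of all genes were. The 5 were PLXNA4, UNC5D, SEMA3G, EPHB6 and SEMA6A.

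PLXNA4 (chromosome 7, 132123340 to 132648688, GRCh38.p14, protein-coding), a plexin that receives class 3 and class 6 semaphorins, was nearly absent from the sgSEPHS2-labelled libraries. It had 2, 1 and 2 reads there, against 157, 127 and 187 reads in the sgCTRL libraries. That is 89.9 times fewer after scaling to library size (95% counting interval 38.3 to 278), with an edgeR adjusted p = 4.26e-12. UNC5D (chromosome 8, 35235475 to 35796540, protein-coding), a netrin receptor of the repulsive UNC5 family, had no read in any sgSEPHS2-labelled library and 163, 211 and 164 reads in the sgCTRL libraries. Setting its total to 3 reads gives a level at least 171-fold lower in the sgSEPHS2-labelled group (edgeR adjusted p = 2.98e-12). Intervals and bounds cover counting error only. Both genes met the 30-read limit through the sgCTRL libraries alone.

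SEMA3G (chromosome 3, 52433035 to 52445103, protein-coding), a secreted semaphorin that binds neuropilin-2, had 65, 99 and 112 reads in the sgSEPHS2-labelled libraries, against 567, 640 and 533 reads in the sgCTRL libraries. The groups lie far apart, at means of 2.32 CPM and 14.1 CPM, and the log2 fold change was -2.59 (SE 0.12, edgeR adjusted p = 4.54e-13). EPHB6 (chromosome 7, 142855076 to 142871093, protein-coding), an Eph receptor whose kinase domain is inactive, had 2, 12 and 17 reads against 63, 64 and 75 reads. Its level was 6.22 times lower in the sgSEPHS2-labelled group (95% counting interval 4.25 to 9.40; edgeR adjusted p = 7.05e-06). EPHB1 (chromosome 3, 134795260 to 135260467, protein-coding), a receptor for B ephrins, went the other way. It had 113, 123 and 108 reads in the sgSEPHS2-labelled libraries, against 49, 50 and 40 reads in the sgCTRL libraries, so the log2 fold change was 1.38 (SE 0.19, edgeR adjusted p = 3.57e-06).

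**Figure D2:**
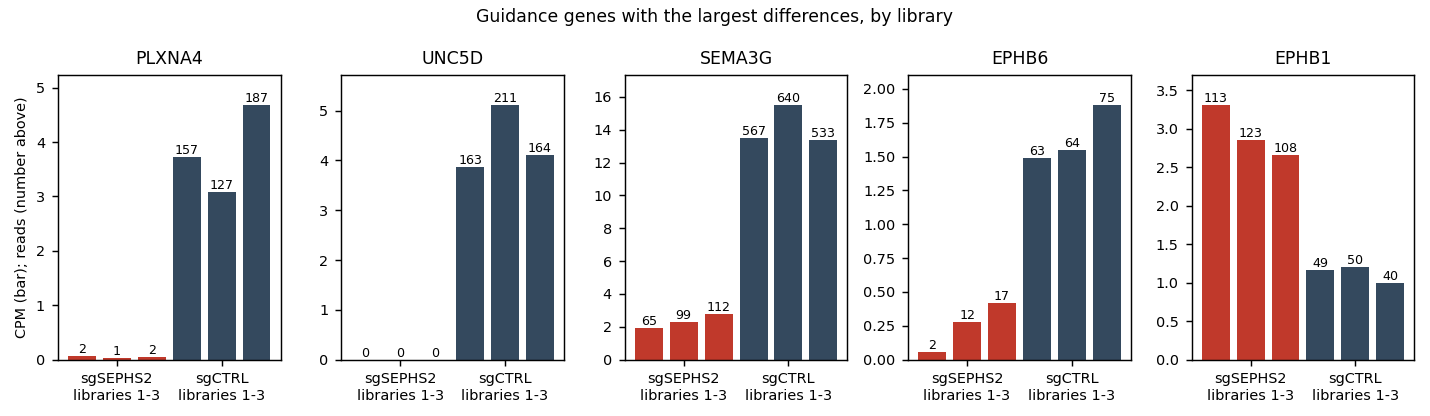
Level of 5 guidance genes in each library, in CPM (bars, axis from 0), with the read count printed above each bar. PLXNA4 and UNC5D have at most 2 reads in any sgSEPHS2-labelled library, and EPHB1 alone is higher there.

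Promoter windows are printed for the members at both ends of the range, as given by RefSeq for GRCh38.p14, 250 bases before to 50 after a transcript start. They show how widely the CG content at a start varies among these 4 genes. No window was available for UNC5D or SEMA6A. Each printed window runs 5′ to 3′ on the gene's strand, with CG dinucleotides in capitals.
PLXNA4, chr7:132576421-132576720, minus strand: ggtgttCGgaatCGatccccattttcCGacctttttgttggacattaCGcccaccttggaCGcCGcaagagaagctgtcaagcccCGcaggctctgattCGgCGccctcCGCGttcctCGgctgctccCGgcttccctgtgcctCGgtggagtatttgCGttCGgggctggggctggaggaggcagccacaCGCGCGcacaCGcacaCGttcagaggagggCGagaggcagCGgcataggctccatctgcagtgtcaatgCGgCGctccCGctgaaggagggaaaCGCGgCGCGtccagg
SEMA3G, chr3:52445054-52445353, minus strand: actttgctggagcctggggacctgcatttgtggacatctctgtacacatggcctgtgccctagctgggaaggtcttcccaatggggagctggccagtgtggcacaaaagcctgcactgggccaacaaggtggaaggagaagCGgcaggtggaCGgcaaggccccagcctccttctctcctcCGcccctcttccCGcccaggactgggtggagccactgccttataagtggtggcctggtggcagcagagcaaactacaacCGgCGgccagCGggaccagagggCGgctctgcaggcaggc
EPHB6, chr7:142862506-142862805, plus strand: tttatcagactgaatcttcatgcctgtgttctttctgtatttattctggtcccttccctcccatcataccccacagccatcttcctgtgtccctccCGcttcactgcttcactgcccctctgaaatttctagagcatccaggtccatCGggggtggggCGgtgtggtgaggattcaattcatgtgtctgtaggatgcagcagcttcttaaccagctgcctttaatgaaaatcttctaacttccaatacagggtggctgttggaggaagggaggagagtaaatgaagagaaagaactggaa
EPHB1, chr3:134795010-134795309, plus strand: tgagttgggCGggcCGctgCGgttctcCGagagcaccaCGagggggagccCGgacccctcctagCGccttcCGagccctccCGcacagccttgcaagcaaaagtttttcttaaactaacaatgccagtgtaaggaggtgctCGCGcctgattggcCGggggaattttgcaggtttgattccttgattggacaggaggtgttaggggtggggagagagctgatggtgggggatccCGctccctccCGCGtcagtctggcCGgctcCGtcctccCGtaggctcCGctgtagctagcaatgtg

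The PLXNA4 window holds 30 CG dinucleotides, a number reached by 22.4% of the 35116 windows in the RefSeq table. SEMA3G holds 8, reached by 60.7% of all windows, EPHB6 holds 3, reached by 81.8%, and EPHB1 holds 19, reached by 42.9%. The windows of PLXNA4 and EPHB6 belong to a start inside the span of the gene, and which start A-375 cells use was not measured. Of the members, 53 had at least 1 window. The median was 28 CG over 39 windows of 25 genes called lower, 19.5 over 12 windows of 9 genes called higher and 21.5 over 24 windows of 17 genes not called. It was 22.5 over all windows of the members and 14 over all windows in the table. Such a count is a description of the sequence and carries no measure of methylation.

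**Figure D3:**
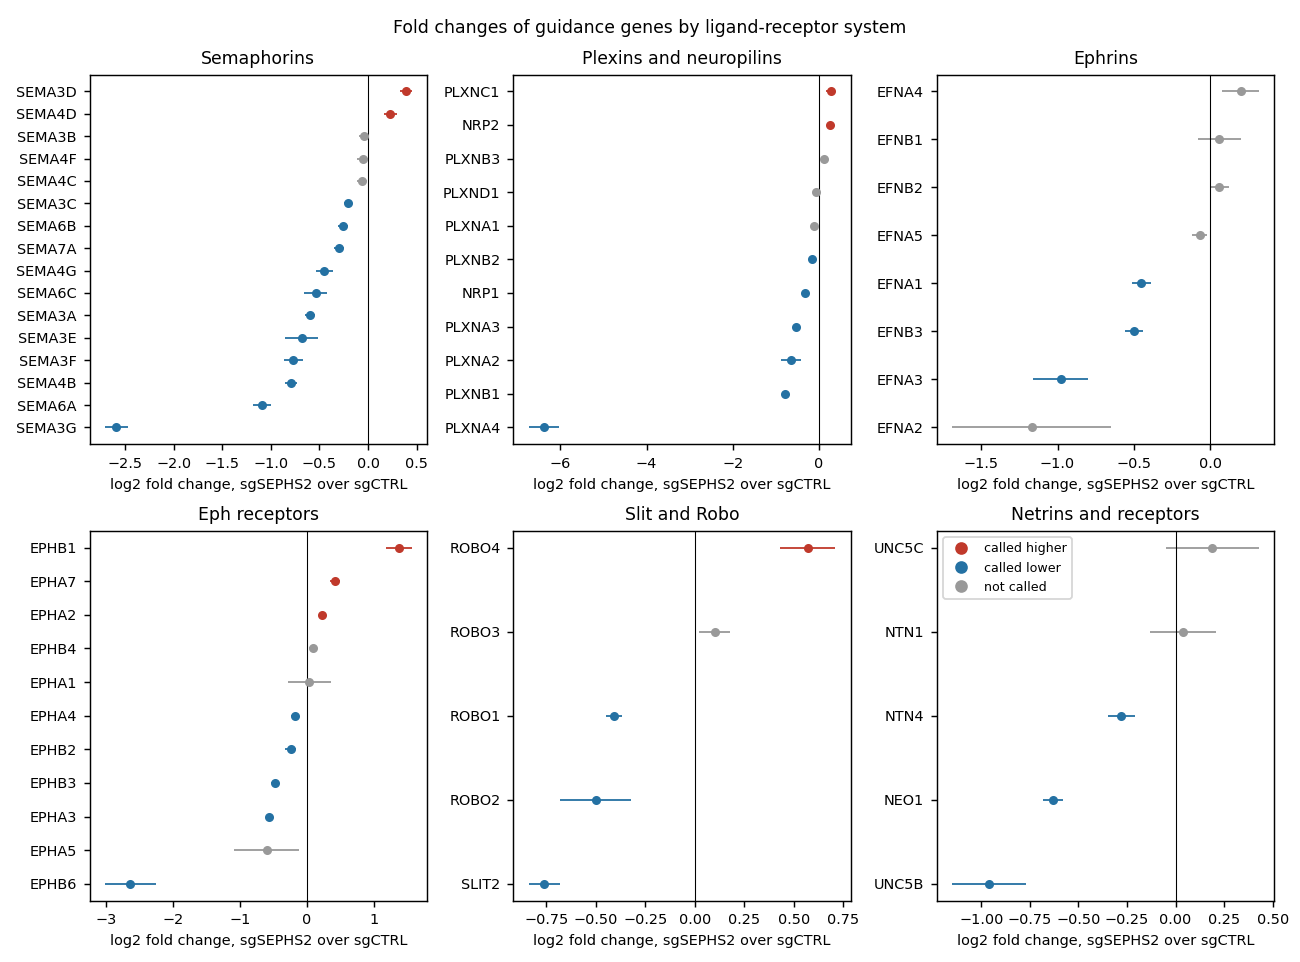
Fitted log2 fold change (sgSEPHS2 over sgCTRL, points) with its SE (bars) for each tested ligand and receptor by system, on a separate axis in each panel. UNC5D, with no read in the sgSEPHS2-labelled libraries, is left out because its fitted fold has no fixed size, and points left of 0 outnumber those right of it among the semaphorins (14 of 16).

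Semaphorins showed the most calls of any ligand family, with 11 of 16 lower and 2 higher. That is 68.8% and 12.5%, beside 23.4% and 22.0% of all genes tested. Among the secreted class 3 members 5 of 7 were lower and 1 higher. Per length, the most abundant ligand of any system was SEMA3C, a class 3 semaphorin that acts through neuropilins and plexin D1, at 40.3 and 46.6 RPKM (CPM per kilobase of exon) in the sgSEPHS2-labelled and sgCTRL groups. Its CPM values were 241, 256 and 261 in the sgSEPHS2-labelled libraries, against 297, 282 and 298 in the sgCTRL libraries. The groups did not overlap and the difference was small, -0.21 on the log2 scale (SE 0.04, edgeR adjusted p = 0.000408).

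SEMA3A, the collapsing factor of growth cones and a neuropilin-1 ligand, fell further. It stood at 64.0, 59.3 and 68.0 CPM in the sgSEPHS2-labelled libraries and 97.1, 97.6 and 95.4 CPM in the sgCTRL libraries, so the log2 fold change was -0.60 (SE 0.05, edgeR adjusted p = 2.32e-09). SEMA3E, the ligand of plexin D1, had 2.72, 3.37 and 4.64 CPM, against 4.89, 7.17 and 5.24 CPM in the sgCTRL libraries, and the gap between the groups is narrow (-0.68, SE 0.17, edgeR adjusted p = 0.00271). SEMA3F, a neuropilin-2 ligand described as restraining tumour spread, had 5.59, 5.73 and 5.40 CPM, against 10.5, 8.98 and 8.94 CPM (-0.77, SE 0.10, edgeR adjusted p = 3.95e-06). SEMA3D was the class 3 exception, at 31.4, 31.6 and 36.4 CPM in the sgSEPHS2-labelled libraries and 25.4, 25.2 and 25.1 CPM in the sgCTRL libraries (0.39, SE 0.06, edgeR adjusted p = 2.08e-05). SEMA3B, next to SEMA3C in level per length, was not called at 123 ± 5.75 CPM against 126 ± 4.95 CPM (-0.04, SE 0.05), and had 0.17 with the length and GC trend removed (edgeR adjusted p = 0.000937).

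SEMA3A, SEMA3C, SEMA3D and SEMA3E all lie on chromosome 7 between positions 80742538 and 85250243. SEMA3D was higher and the other 3 were lower.

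All 3 class 6 semaphorins, which are membrane-bound ligands of A plexins, were lower. SEMA6A had 6.88, 6.43 and 8.02 CPM in the sgSEPHS2-labelled libraries, against 15.8, 14.5 and 15.1 CPM in the sgCTRL libraries, with no overlap (-1.09, SE 0.09, edgeR adjusted p = 3.99e-09). SEMA6C had 4.86, 5.55 and 6.98 CPM, against 8.21, 9.01 and 8.12 CPM (-0.54, SE 0.12, edgeR adjusted p = 0.00102). SEMA6B was lower by less (-0.26) and lost its call with the length and GC trend removed (-0.01, edgeR adjusted p = 0.837).

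Class 4 semaphorins, membrane-bound ligands mainly of B plexins, were mixed. SEMA4B had 22.3, 21.7 and 22.5 CPM in the sgSEPHS2-labelled libraries, against 39.8, 37.9 and 37.0 CPM in the sgCTRL libraries (-0.79, SE 0.06, edgeR adjusted p = 1.99e-10). SEMA4G was also lower (-0.45), and its span overlaps that of the mitochondrial ribosomal gene MRPL43. SEMA4D, the plexin B1 ligand, was called higher (0.23, edgeR adjusted p = 0.0156), a call lost when either sgCTRL replicate 3 or sgSEPHS2 replicate 2 was left out (largest edgeR adjusted p = 0.0980). SEMA4D stood at 0.44 with the length and GC trend removed (edgeR adjusted p = 3.58e-05). Its span overlaps that of SECISBP2. SEMA4C and SEMA4F were not called (-0.06 and -0.05). SEMA7A, a lipid-anchored ligand of plexin C1, was lower by -0.30.

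Receptors for these ligands were less uniform. Plexins of the A type, which transmit class 3 and class 6 signals, had 3 of 4 members lower, PLXNA4 among them. That is 75.0%, beside 23.4% of all genes tested. PLXNA3 had 21.0, 21.1 and 22.2 CPM in the sgSEPHS2-labelled libraries, against 32.3, 31.1 and 29.3 CPM in the sgCTRL libraries (-0.53, SE 0.06, edgeR adjusted p = 2.22e-07). PLXNA2, a SEMA6A receptor, had 1.79, 1.32 and 1.26 CPM, against 3.16, 1.86 and 1.75 CPM, and its groups overlap. Its call (-0.65, edgeR adjusted p = 0.0280) was lost without sgCTRL replicate 1, sgSEPHS2 replicate 2 or sgSEPHS2 replicate 3 (largest edgeR adjusted p = 0.307), with DESeq2 (adjusted p = 0.0628) and with the length and GC trend removed (-0.44, edgeR adjusted p = 0.125). PLXNA1 was not called (-0.11, SE 0.05), and had 0.14 with the length and GC trend removed (edgeR adjusted p = 0.0272).

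PLXNB1, the SEMA4D receptor, was lower with a wide gap. It had 51.4, 56.3 and 55.4 CPM in the sgSEPHS2-labelled libraries, against 97.1, 91.4 and 95.9 CPM in the sgCTRL libraries (-0.80, SE 0.05, edgeR adjusted p = 1.58e-11). PLXNB2, the plexin with the highest level per length (14.6 and 16.5 RPKM), had 109.9, 103 and 106 CPM, against 122, 124 and 113 CPM. The groups are close, and the call (-0.17, SE 0.05, edgeR adjusted p = 0.00400) was lost with the length and GC trend removed (0.04, edgeR adjusted p = 0.420). PLXNB3 and PLXND1 were not called (0.11 and -0.07), and with that trend removed both were called higher (0.36 and 0.20). PLXNC1 was called higher (0.27, edgeR adjusted p = 0.0455), a call lost without any 1 of 4 libraries, sgCTRL replicates 1 and 2 and sgSEPHS2 replicates 2 and 3 (largest edgeR adjusted p = 0.261) and with DESeq2 (adjusted p = 0.100).

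The neuropilins parted. NRP1 had 29.4, 35.3 and 36.1 CPM in the sgSEPHS2-labelled libraries, against 45.3, 40.8 and 40.5 CPM in the sgCTRL libraries (-0.33, SE 0.07, edgeR adjusted p = 0.000486). NRP2 had 107, 95.4 and 97.3 CPM, against 85.3, 83.0 and 80.8 CPM (0.26, SE 0.05, edgeR adjusted p = 0.000115). Their summed level per length was 10.1 ± 0.158 RPKM in the sgSEPHS2-labelled group and 9.64 ± 0.389 RPKM in the sgCTRL group, with overlapping libraries, and NRP2 made up 71.1% and 62.0% of it.

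**Figure D4:**
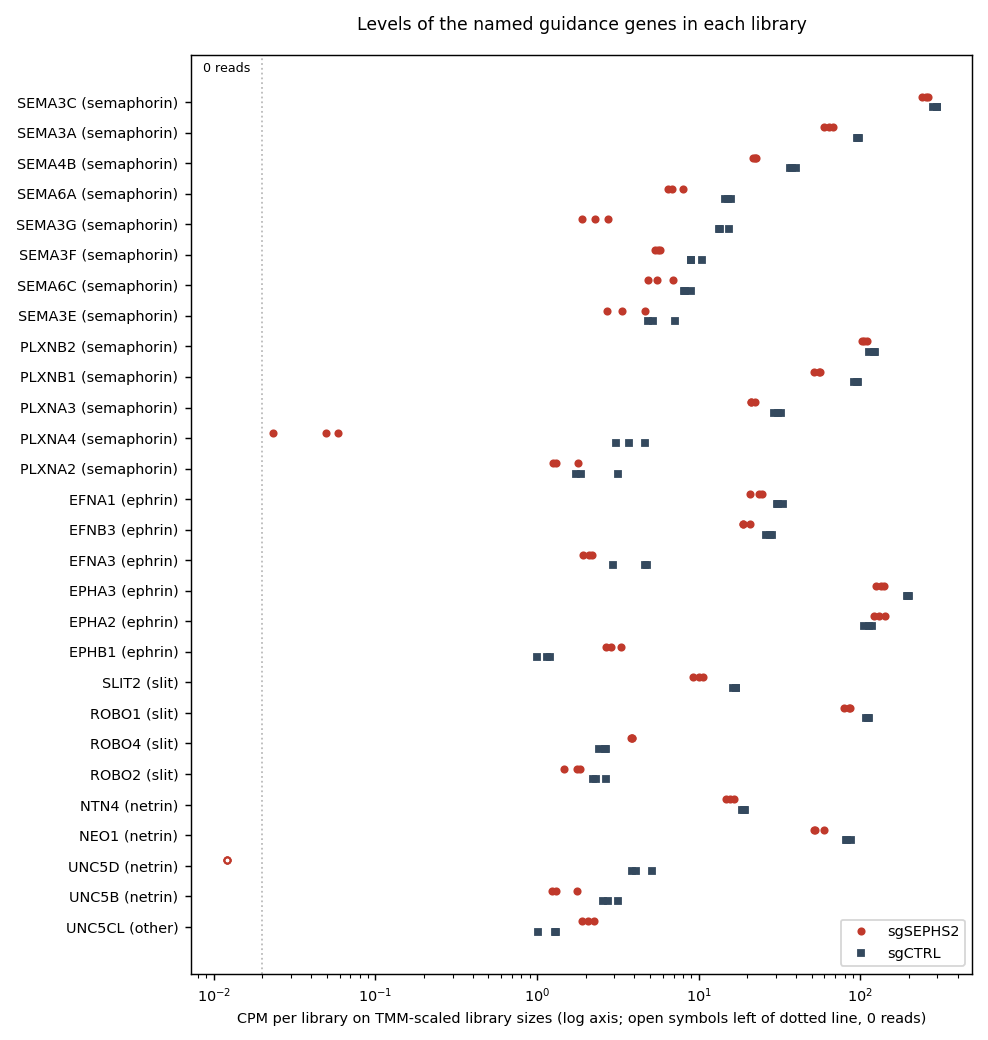
CPM in each library (points, log axis) of the members named by rule, grouped by system, with sgSEPHS2-labelled libraries as circles and sgCTRL libraries as squares. Open circles left of the dotted line mark UNC5D, with 0 reads in the sgSEPHS2-labelled libraries. The members with the highest level of each system are added. EPHA2, EPHB1, ROBO4 and UNC5CL have the sgSEPHS2-labelled libraries to the right, PLXNA2 overlaps, and the others have them to the left.

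In the ephrin system 8 of 19 tested genes were lower and 3 higher, or 42.1% and 15.8%, beside 23.4% and 22.0% of all genes tested. All 3 that were higher are receptors. EFNA1, the ligand of EPHA2 and the ephrin with the highest level per length (9.08 and 12.5 RPKM), had 20.9, 23.6 and 24.7 CPM in the sgSEPHS2-labelled libraries, against 31.2, 33.3 and 30.4 CPM in the sgCTRL libraries (-0.45, SE 0.06, edgeR adjusted p = 6.23e-06). EFNA3 had 66, 90 and 89 reads, against 195, 122 and 190 reads, with 1 sgCTRL library nearer to the other group (-0.98, SE 0.18, edgeR adjusted p = 0.000121). EFNB3, a transmembrane ephrin, had 20.7, 18.8 and 18.8 CPM, against 26.2, 27.8 and 28.6 CPM (-0.50, SE 0.06, edgeR adjusted p = 9.70e-07). EFNA4, which is joined to its neighbour EFNA3 in a read-through transcript, was not called (0.20, SE 0.12), nor were EFNA5 (-0.07, SE 0.05) and EFNB1 (0.06, SE 0.14). EFNA2, with 23 and 54 reads in the groups, was not called either (-1.17, SE 0.52, edgeR adjusted p = 0.0741).

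EFNB2, the ligand of EPHB4, stood at 25.3 ± 0.610 CPM in the sgSEPHS2-labelled libraries and 24.3 ± 1.04 CPM in the sgCTRL libraries (0.06, SE 0.06, edgeR adjusted p = 0.438). It lies on chromosome 13, where 212 of 323 tested genes were called lower and the median log2 fold change was -0.40.

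The A-type Eph receptors with the highest levels went opposite ways. EPHA2, a receptor that is frequent in melanoma lines, had 143, 131 and 121 CPM in the sgSEPHS2-labelled libraries, against 118, 113 and 106 CPM in the sgCTRL libraries (0.23, SE 0.05, edgeR adjusted p = 0.00158). EPHA3, a receptor for ephrin-A5, had 4315, 5755 and 5700 reads, against 8324, 8050 and 7983 reads, or 134 ± 7.13 CPM and 197 ± 2.51 CPM (-0.56, SE 0.04, edgeR adjusted p = 1.14e-09). Per length, EPHA2 stood at 31.7 RPKM in the sgSEPHS2-labelled group and 27.0 RPKM in the sgCTRL group, and EPHA3 was the higher of the pair in the sgCTRL group only, at 29.6 RPKM. EPHA3 was 34.8% of the summed level of A-type receptors in the sgSEPHS2-labelled group and 47.5% in the sgCTRL group.

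EPHA7 was higher as well, at 689, 729 and 771 reads in the sgSEPHS2-labelled libraries, against 606, 577 and 537 reads in the sgCTRL libraries (0.42, SE 0.07, edgeR adjusted p = 8.86e-05). EPHB3 was lower (-0.48, SE 0.06, edgeR adjusted p = 2.75e-06). EPHA4 and EPHB2 were called lower by small amounts (-0.18 and -0.24). The EPHA4 call was lost without sgCTRL replicate 2 or sgSEPHS2 replicate 2 (largest edgeR adjusted p = 0.115). That of EPHB2 was lost without sgCTRL replicate 2, sgCTRL replicate 3 or sgSEPHS2 replicate 2 (largest edgeR adjusted p = 0.0964), and both were lost with the length and GC trend removed (-0.11 and -0.04). EPHB4, the B-type receptor with the highest level, was not called at 50.5 ± 3.03 CPM against 47.3 ± 0.702 CPM (0.09, SE 0.05), and had 0.24 with that trend removed (edgeR adjusted p = 0.000306). EPHA1 and EPHA5 were under 1 CPM and not called (0.04 and -0.60, SE 0.32 and 0.49). EPHA6 had 10 and 21 reads in the groups.

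In the slit system 3 of 5 tested genes were lower and 1 higher. SLIT2, a secreted repellent, had 364, 431 and 374 reads in the sgSEPHS2-labelled libraries, against 716, 673 and 684 reads in the sgCTRL libraries. Scaled to depth, that is 9.96 ± 0.717 CPM and 16.8 ± 0.447 CPM, with a wide gap (-0.76, SE 0.08, edgeR adjusted p = 8.35e-08). ROBO1, its receptor, had 84.9, 79.7 and 86.3 CPM, against 113, 112 and 109 CPM (-0.41, SE 0.04, edgeR adjusted p = 1.25e-07). ROBO2 was low, at 1.85, 1.46 and 1.78 CPM, against 2.21, 2.32 and 2.66 CPM. Its call (-0.50, edgeR adjusted p = 0.0283) was lost without sgCTRL replicate 3 or sgSEPHS2 replicate 2 (largest edgeR adjusted p = 0.124), with DESeq2 (adjusted p = 0.0821) and with the length and GC trend removed (edgeR adjusted p = 0.105). ROBO3, which in mammals binds NELL2 in place of slits, was not called (0.10, SE 0.08), and was called higher with that trend removed (0.31, edgeR adjusted p = 0.00144). SLIT1 had 13 and 26 reads in the groups.

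ROBO4, a Robo receptor known from blood vessels, was called higher, at 3.87, 3.81 and 3.85 CPM in the sgSEPHS2-labelled libraries, against 2.42, 2.64 and 2.68 CPM in the sgCTRL libraries (0.57, SE 0.14, edgeR adjusted p = 0.00248). Summed endothelial markers were 27.7 to 30.6 CPM against 18.8 to 21.6 CPM, mostly TIE1, which was called higher (20.3 and 10.3 CPM). PECAM1, VWF and KDR were not called and CDH5 was near 0 (0.0555 and 0.0320 CPM). TEK was called lower on 43 and 92 reads. Its call was lost when any single library but sgCTRL replicate 1 was left out (largest edgeR adjusted p = 0.166) and with DESeq2 (adjusted p = 0.0653). The part of these markers in the ROBO4 result was not tested.

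In the netrin system 4 of 6 members were lower, or 66.7%, beside 23.4% of all genes tested. The other 2, UNC5C and NTN1, were not called. NEO1, neogenin, a receptor for netrins and for repulsive guidance molecules, carried most of the receptor level. It had 59.7, 52.5 and 51.5 CPM in the sgSEPHS2-labelled libraries, against 88.2, 81.4 and 82.7 CPM in the sgCTRL libraries (-0.63, SE 0.05, edgeR adjusted p = 6.24e-09). UNC5B had 1.23, 1.32 and 1.78 CPM, against 2.73, 3.15 and 2.56 CPM (-0.96, SE 0.19, edgeR adjusted p = 0.000284). UNC5C, at 1.72 ± 0.495 CPM and 1.51 ± 0.389 CPM, was not called (0.19, SE 0.24). Of the ligands, NTN4, a netrin related to laminins, had 14.7, 15.6 and 16.6 CPM, against 19.4, 18.6 and 19.1 CPM (-0.28, SE 0.07, edgeR adjusted p = 0.00168). NTN1, the classical netrin, was at 2.34 ± 0.259 CPM and 2.27 ± 0.236 CPM and was not called (0.04, SE 0.17).

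UNC5CL had 2.08, 1.90 and 2.25 CPM in the sgSEPHS2-labelled libraries, against 1.02, 1.31 and 1.30 CPM in the sgCTRL libraries (0.78, SE 0.20, edgeR adjusted p = 0.00349). UNC50 was not called (0.08, SE 0.05). Without both, 32 members were lower and 8 higher.

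**Figure D5:**
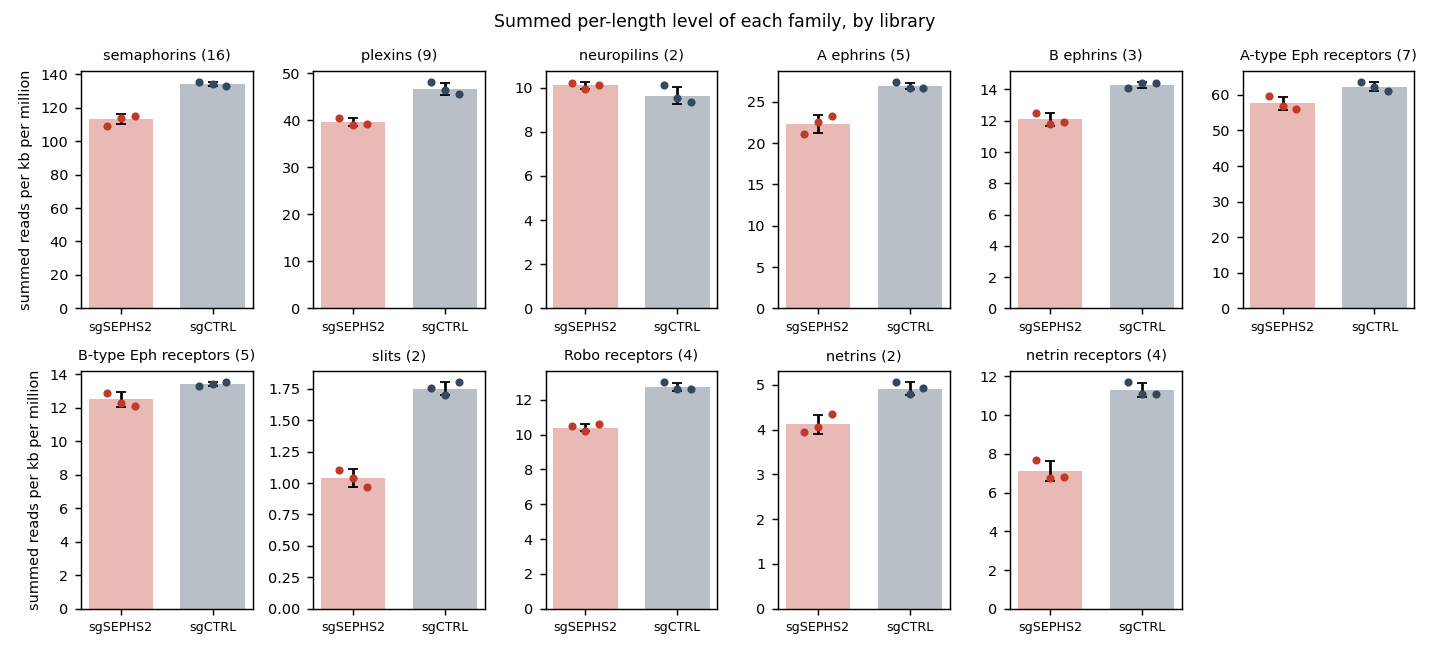
Summed level per length (RPKM, axis from 0 in each panel) of each family, with the number of members in brackets, the mean of 3 libraries as bars, the SD as error bars and each library as a point. Every family but the neuropilins has all sgSEPHS2-labelled libraries below all sgCTRL libraries.

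Summed over members per length, semaphorins stood at 113 ± 2.93 RPKM in the sgSEPHS2-labelled group and 134 ± 1.29 RPKM in the sgCTRL group (SD, n = 3 each). Plexins summed to 39.6 ± 0.825 RPKM and 46.8 ± 1.28 RPKM. A ephrins summed to 22.3 ± 1.11 RPKM and 26.9 ± 0.372 RPKM, and B ephrins to 12.1 ± 0.411 RPKM and 14.3 ± 0.179 RPKM. Eph receptors had ratios of sgSEPHS2 over sgCTRL of 0.924 for the A type and 0.930 for the B type. The lowest ratios were those of slits (0.592) and netrin receptors (0.627), each set by 1 gene, SLIT2 with 98.8% and 98.7% of its sum and NEO1 with 94.7% and 91.5%. These sums are descriptions and carry no test, since the members were chosen with results known.

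For pairs picked after their values were seen, known partners moved together in some systems and apart in others. SEMA6A was lower with its receptor PLXNA4, SLIT2 with ROBO1, and SEMA3A with NRP1. EFNA1 was lower while EPHA2 was higher. PLXNB1 was lower while SEMA4D was called higher, a call lost without sgCTRL replicate 3 or sgSEPHS2 replicate 2 (largest edgeR adjusted p = 0.0980). For SEMA3E and PLXND1 only the ligand was called, and whether ligand and receptor differ in their response was not tested.

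By position, 12 members lie on chromosome 3, more than on any other chromosome, and 7 of the 11 tested there were lower and 1 higher. Of all 941 genes tested on that chromosome, 199 were lower and 186 higher, with a median log2 fold change of 0.02. On chromosome 7, 5 of 8 members were lower and 1 higher, beside 205 and 174 of 834 genes. Of the 61 members 41 have a span, introns included, that overlaps another RefSeq gene on either strand. Since the strand setting is not known, reads on a stretch shared by exons of such a pair cannot be told apart. Overlap of exons was not measured.

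Genes that act with these ligands and receptors were read from 6 lists, written with earlier results of these data known. Of 98 tested, 39 were lower, 21 higher and 38 not called, a share of 39.8% lower and 21.4% higher beside 23.4% and 22.0% of all genes. Of 21 semaphorin signalling partners 9 were lower and 4 higher, or 42.9% and 19.0%. CRMP1, the collapsin response mediator that relays SEMA3A, stood at 8.71 ± 0.606 CPM in the sgSEPHS2-labelled libraries and 18.4 ± 1.18 CPM in the sgCTRL libraries (-1.08, SE 0.08, edgeR adjusted p = 6.36e-10). Of its relatives, named after their values were seen, DPYSL2 was higher at 85.6 ± 3.84 CPM against 70.2 ± 3.48 CPM (0.29, edgeR adjusted p = 5.95e-05). DPYSL3 was called lower (-0.20) and DPYSL5 higher (0.18). The DPYSL3 call was lost without sgCTRL replicate 2 (edgeR adjusted p = 0.0513), and the DPYSL5 call without any 1 of 4 libraries (largest edgeR adjusted p = 0.241) and with DESeq2 (adjusted p = 0.0866). FARP1, a guanine nucleotide exchange factor that binds A plexins, was lower by -1.16 and lies on chromosome 13. ARHGEF11 and ARHGEF12, exchange factors that bind B plexins, were lower by -0.30 and -0.31.

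Of 22 Eph and ephrin partners 8 were lower and 5 higher, or 36.4% and 22.7%, beside 23.4% and 22.0% of all genes. VAV3, an exchange factor recruited by Eph receptors, had 0.415 ± 0.155 CPM in the sgSEPHS2-labelled libraries and 6.25 ± 0.734 CPM in the sgCTRL libraries (-3.90, SE 0.21, edgeR adjusted p = 3.00e-12). GRIP1, a scaffold that binds B ephrins, had 5.48 ± 0.855 CPM and 22.8 ± 1.68 CPM (-2.05, SE 0.10, edgeR adjusted p = 3.53e-13). ANKS1A, an adaptor of EPHA receptors, was lower by -0.38. YES1, a kinase of the Src family, was higher (0.92) and lies on chromosome 18, where 100 of 230 tested genes were called higher and 41 lower.

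Of 10 slit and Robo partners 2 were lower and 2 higher, SRGAP2 (-0.43) and SRGAP3 (-0.39), which are GTPase-activating proteins that bind Robo, against FLRT3 (0.42) and DAG1 (0.25), the dystroglycan gene. SRGAP3 lost its call with the length and GC trend removed (edgeR adjusted p = 0.278). Of 17 netrin, DCC, UNC5 and neogenin partners 8 were lower and 3 higher, or 47.1% and 17.6%. DAPK1, a death kinase that binds UNC5 receptors, and MAGED1, which also binds them, were lower (-1.09 and -0.63), and FLRT2, a ligand of UNC5D, was higher with 426, 431 and 426 reads against 268, 208 and 245 reads (0.91, SE 0.11, edgeR adjusted p = 1.00e-06). The counts of FLRT2 are identical to those of another row, LOC124907389. PTK2, focal adhesion kinase, was lower by -0.23, a call lost with the length and GC trend removed (edgeR adjusted p = 0.145). RGMA and RGMB, the neogenin ligands, were called lower (-1.08 and -0.32) and are named after their values were seen. The RGMA call, on 38 and 85 reads, was lost without any 1 of 5 libraries (largest edgeR adjusted p = 0.248) and with DESeq2 (adjusted p = 0.0793).

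Of 15 growth cone cytoskeleton genes 6 were higher and 4 lower, or 40.0% and 26.7%, beside 22.0% and 23.4% of all genes. ROCK1, a kinase of the actin cytoskeleton on chromosome 18, and CFL1, the actin-severing cofilin, were higher (0.44 and 0.24), and SSH1, a cofilin phosphatase, and WASL, an activator of actin branching, were lower (-0.34 and -0.30).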

How the data were processed

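RNA of A-375 cells was sequenced in 3 libraries labelled sgSEPHS2 and 3 labelled sgCTRL. The authors deposited whole-number read counts per gene symbol. Per the submitters' processing notes, reads were handled with HISAT2 2.2.1, SAMtools 1.21, FastQC 0.12.1 and, from Subread, featureCounts 2.0.6, on GRCh38. Not given in the sources used here were the annotation, the strand setting and how multimapping reads were treated. Counts without strand may not separate a gene from a partner where their exons overlap. Reads shared by near-identical genes may have been split or dropped.

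Counts were fitted in R 4.3.3 with edgeR 4.0.16 (filterByExpr by group, TMM factors, quasi-likelihood test, group only). Benjamini-Hochberg adjustment ran over the 16910 genes left of 21631, and genes were called at an adjusted p under 0.05. A prior count of 2 was used for log CPM values only, not set in this fit. The filter removed 4721 genes. Log2 fold changes are sgSEPHS2 over sgCTRL, with SEs from the same fit. CPM used TMM-scaled library sizes. RPKM divides CPM by the union of exon lengths in GENCODE 29, found for all 61 members, and serves only for comparing levels between genes. Positions and promoter windows are from RefSeq GRCh38.p14, to which all 61 members matched. Ratios at low counts have an exact conditional binomial interval of 95%, and a group total of 0 was replaced by 3 reads. The fit was tested on simulated data. Replicates of a group differed by more than sampling noise (chi-square per degree of freedom 4.54 to 6.86), so none was counted as a duplicate.

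Values in every library are given for members called with an absolute log2 fold change of at least 0.5 and a mean of at least 1 CPM, and for the ligand and receptor of highest RPKM in each system. Other members called below 1 CPM are given by reads, the rest by fold change, with library values added for SEMA3D, NRP1, NRP2 and EPHA7 after their values were seen. From each partner list up to 4 called genes with the smallest adjusted p are named. Members and lists were chosen with earlier results of these data known. Alternatives were RLE and upper-quartile factors, other filters and read limits, DESeq2 1.42.0, limma-voom 3.58.1, a replicate block, each library left out, an adjusted p under 0.01, chromosomes 13 and 18 left out, and a smooth curve in GC content and exon length taken out (both known for 93.2% of tested genes). Leaving out UNC50 and UNC5CL was added after seeing the data.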

Additional observations from a re-analysis of the deposited data

How the results depend on the processing

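Members called numbered 32 lower and 9 higher in the reported fit. Taking out a smooth curve in GC content and exon length gave 26 lower and 15 higher among members, 3065 lower and 4378 higher among all genes (3950 and 3723 in the reported fit), and 30 lower and 31 higher among partner genes (39 and 21). Under that setting the sign turned for SEMA3B (0.17), PLXNA1 (0.14), PLXNB2 (0.04), PLXND1 (0.20), SEMA4C (0.07) and SEMA4F (0.03). SEMA4C and SEMA4F were called in neither fit. The cause was not tested. RLE or upper-quartile factors, no filter, a filter at 1 CPM, DESeq2, limma-voom, leaving out chromosomes 13 and 18, and member limits of 100 or 300 reads gave 30 to 33 members lower and 8 or 9 higher. An adjusted p under 0.01 gave 28 and 7. Leaving out 1 library at a time gave 28 to 33 members lower and 7 to 9 higher, 3270 to 3905 of all genes lower and 3069 to 3548 higher, and 31 to 38 partner genes lower and 17 to 20 higher. With the replicate number as a block, 32 members were lower and 9 higher, and all 59 member calls were the same. Deviations of libraries with the same number correlated at 0.0749, 0.0175 and 0.106, which does not pair them. Depth limits EPHA6, SLIT1, EFNA2, EPHA5 and EPHA1, each with at most 170 reads in all 6 libraries. The EPHA5 ratio, 1.53 times lower, had a counting interval of 0.984 to 2.40.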

Other observations

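Other guidance cues and receptors outside the families above were mostly lower as well, with 8 of 13 tested lower and 1 higher in the sgSEPHS2-labelled libraries, where 23.4% of all genes tested were called lower, on a list written with earlier results of these data known. RTN4, which makes the neurite outgrowth inhibitor Nogo, stood at 478 ± 6.09 CPM in the sgSEPHS2-labelled libraries and 612 ± 21.1 CPM in the sgCTRL libraries (SD, n = 3 each; log2 fold change -0.36, edgeR adjusted p = 3.15e-07). Of the SLITRK family, neuronal membrane proteins with leucine-rich repeats like those of slits, SLITRK4, SLITRK5 and SLITRK6 were lower (-0.52, -0.34 and -0.48). SLITRK1 was higher (0.68, edgeR adjusted p = 0.000228) and is named after its values were seen. SLITRK1, SLITRK5 and SLITRK6 all lie on chromosome 13, where the median gene stood at -0.40.

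Antisense transcripts of members were left out of the member list, and 5 had a row. SEMA3F-AS1 had 50, 109 and 84 reads in the sgSEPHS2-labelled libraries, against 100, 70 and 45 reads in the sgCTRL libraries (0.23, edgeR adjusted p = 0.472). SEMA6A-AS1 had 68, 72 and 70 reads, against 102, 60 and 93 reads (-0.21, edgeR adjusted p = 0.449). Both overlap a member that was called lower, SEMA3F and SEMA6A, and neither passed the test itself. The other 3 had too few reads to be tested.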
